A study of Mus musculus with 6 samples.

Results

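Ribosome biogenesis and nucleolar factors were followed in RAW264.7 cells, an established mouse macrophage-like cell line, after transfection with a miR-342-3p mimic. The set comprised 44 listed genes, of which 43 were measured, among 19938 genes measured in all. Noc2l was not named by any probe set used here, and Nhp2l1 was measured under its current symbol Snu13. Members were chosen by gene symbol among probe sets annotated to a single gene, and a gene with several probe sets was represented by the one with the largest interquartile range over the 6 arrays. The 8 core proteins of small nucleolar ribonucleoproteins (snoRNPs) were set apart from the other 35 measured members.
The miR-342-3p group (n = 3 arrays) received 30 nM of the mimic, and the negative control group (n = 3) the same dose of a scrambled mimic. Both groups were the same cell line and received the same transfection reagent, no stimulus is named for them, and their RNA was isolated 18 h later for Affymetrix gene arrays that probe whole transcripts. The mimic is the mouse microRNA encoded on chromosome 12 at positions 108658680 to 108658702 (plus strand, GRCm38.p6). Its mature sequence from RefSeq is shown because it is the only agent that differs between the groups, and capitals mark the seed (bases 2 to 8) through which a microRNA pairs with target transcripts.
mmu-miR-342-3p: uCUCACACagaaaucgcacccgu
Ribosomes are assembled in the nucleolus, where RNA polymerase I transcribes a long precursor that is folded, modified and cut into the mature rRNAs. Box C/D snoRNPs guide the methylation of riboses and box H/ACA snoRNPs the conversion of uridine to pseudouridine, each with a fixed core of proteins around a guide RNA. The small subunit processome then folds and cleaves the precursor of the small subunit, and another set of factors matures the large subunit. Growing and dividing cells depend on this pathway.
Values are log2 intensities per probe set, and a log2 fold change is always miR-342-3p minus control. In bulk RNA, fewer expressing cells and less RNA per cell cannot be told apart. The control arrays correlated with each other at 0.998 to 0.999 over all genes, and the miR-342-3p arrays at 0.991 to 0.993. The miR-342-3p replicate 3 array correlated at 0.996 with each control array, above its 0.992 and 0.993 with the other miR-342-3p arrays, whereas replicates 1 and 2 correlated with the controls at 0.985 to 0.988. By its profile replicate 3 thus lay nearer to the controls than to its own group. The count of lower members without it is given below. The macrophage markers Csf1r (log2 fold change 0.048), Cd68 (-0.097), Lyz2 (0.032), Adgre1 (-0.16) and Ptprc (-0.59) did not pass the test, whereas Itgam (-0.35, FDR = 0.064) and Fcgr1 (-0.35, FDR = 0.036) passed it and were lower with the mimic. None of 9 measured fibroblast, T cell and B cell markers was called with limma, and 1 of them, Cd79a (0.38, FDR = 0.116), was below an unadjusted p of 0.05.

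The mimic group had lower values than the controls in 7 of the 43 measured members and higher values in none, at an FDR under 0.1 (limma, Benjamini-Hochberg over all genes). The 7 were the snoRNP genes Dkc1 and Nop58, the processome genes Nop14, Bms1, Utp6 and Utp20, and the large subunit gene Rrp1b, and the other 36 missed that threshold. The 7 make up 16.3% of the members, beside 7.42% lower and 4.14% higher among all genes. All members lay in the upper part of the intensity range, at or above the median level of all genes, where 13.6% of genes were lower and 6.19% higher. The members' share was therefore close to that of genes of similar level.
At an unadjusted p under 0.05 limma gave 16 lower members (37.2%) and none higher, beside 13.0% lower and 12.5% higher among all genes. The methods' t-test gave 10 lower members (23.3%) and none higher before adjustment, beside 9.81% lower and 10.4% higher among all genes. After adjustment it called no member in either direction. Shares among genes at or above the median level were not counted at the unadjusted threshold. At the stricter FDR under 0.05 in limma, Dkc1 and Nop14 were lower, beside 3.32% of all genes. In direction, 36 of 43 members had a log2 fold change below 0, beside 35.5% of all genes and 53.6% of genes at or above the median level. The median log2 fold change of the members was -0.13, against 0.069 over all genes and -0.024 over genes at or above the median level. The lowest member was Dkc1 (-0.66) and the highest, by the probe set used, Fbl (0.16).
In 18 members every miR-342-3p array lay below every control array, and in 1 member, Fbl, every miR-342-3p array lay above. A second probe set of Fbl overlapped between the groups and gave -0.20. All genes gave 15.5% wholly below and 21.4% wholly above, and genes at or above the median level 28.2% and 21.1%.
The calls changed more than the sizes of the changes when a control array was left out. The fit takes 1 variance per gene for both groups. The miR-342-3p arrays were more scattered than the controls, with correlations within groups of 0.991 to 0.993 and 0.998 to 0.999. What part this had in the calls was not tested. Without control replicate 1, 2 or 3, only Dkc1 was called in each case (FDR = 0.0999, 0.0998 and 0.0793), while genes called lower over the whole array fell in number to 102, 115 and 140, against 1479 with all arrays. Without miR-342-3p replicate 1 the count of lower members was 5 (11.6%), beside 986 of all genes (4.95%). Without replicate 2 it was 13 (30.2%), beside 1830 genes (9.18%). Without replicate 3, the array nearest to the controls, it was 10 (23.3%), beside 2422 genes (12.1%). The median log2 fold change over the members was then -0.14.

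**Figure D1:**
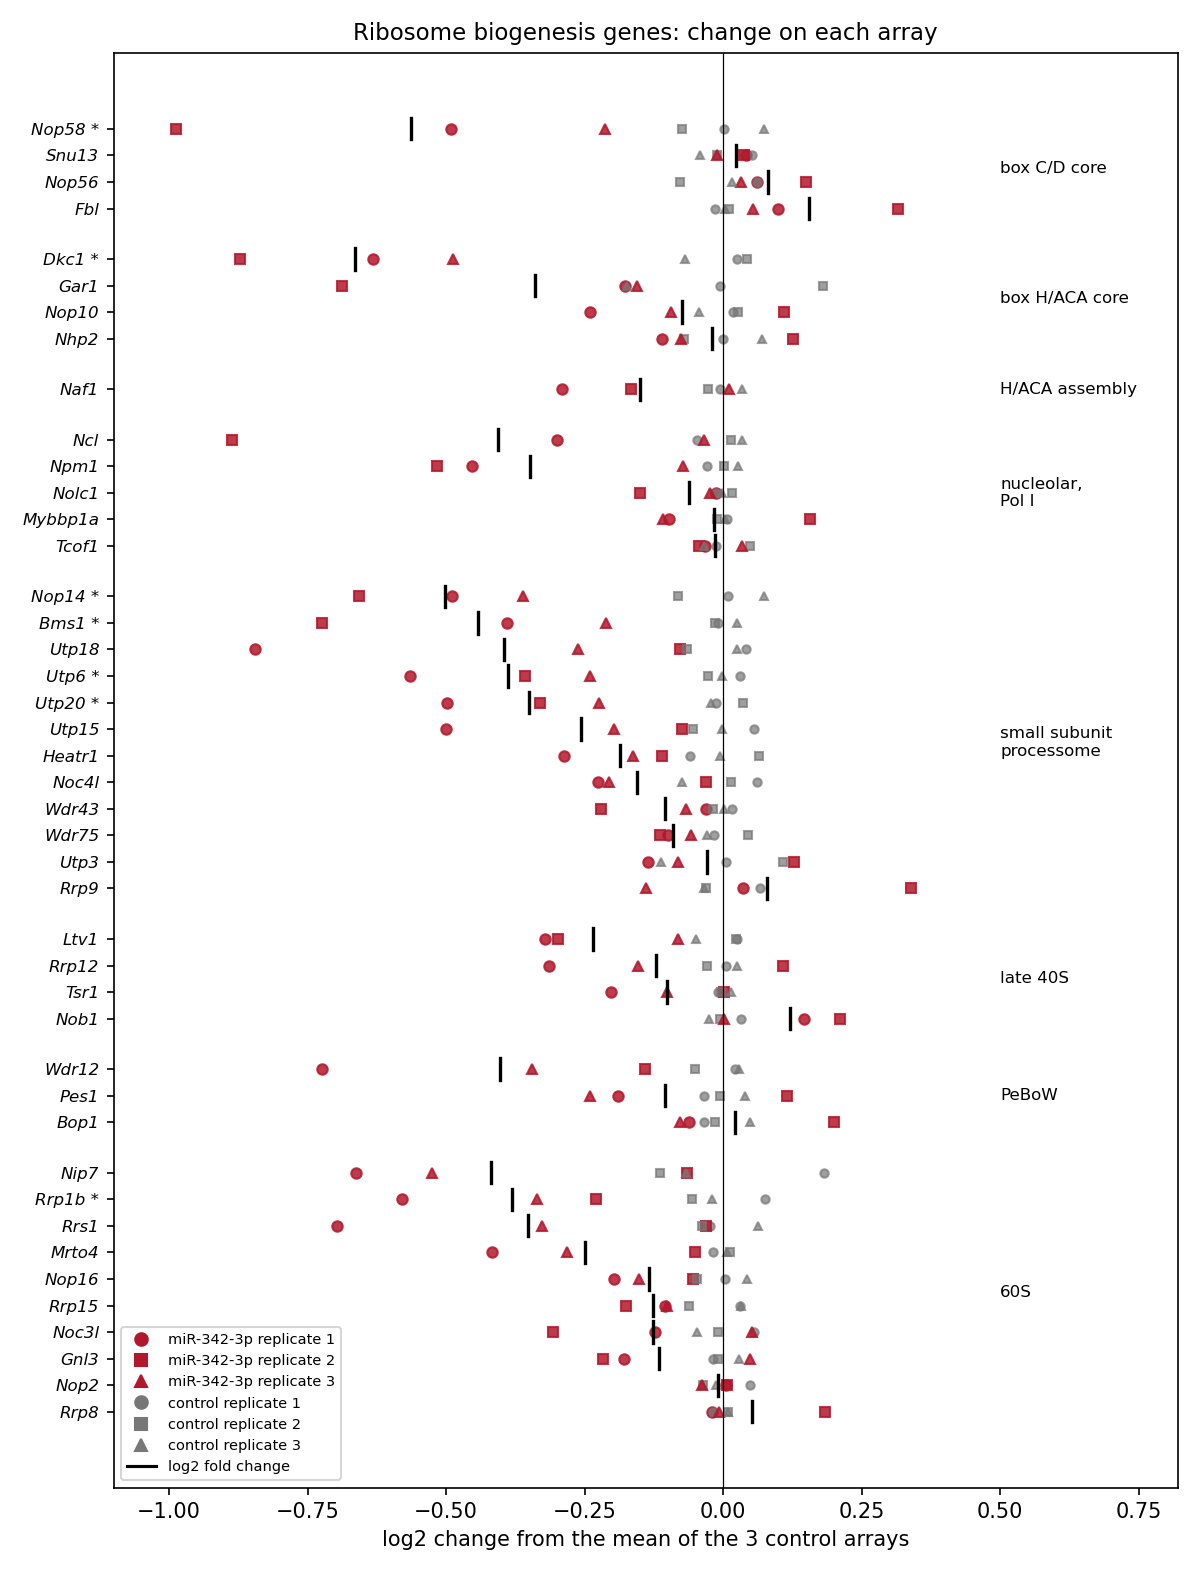
Log2 change of every measured member (rows, grouped by role) from the mean of the 3 control arrays, with red symbols for miR-342-3p and grey symbols for control arrays, the shape giving the replicate, a black bar at the log2 fold change and an asterisk for an FDR under 0.1. The 7 called members lie left of 0 on all 3 miR-342-3p arrays, and many others are pulled left by a single array.

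The box C/D core consists of fibrillarin (Fbl), the methyltransferase, the scaffold proteins Nop56 and Nop58, and Snu13, which binds the kink-turn of the guide RNA. Nop58 (chromosome 1, 59684961 to 59711510, gene bounds from RefSeq on GRCm38.p6, as for the genes that follow) was the only one of these 4 genes that was called. Its log2 values were 9.98, 9.48 and 10.25 on the miR-342-3p arrays, against 10.47, 10.39 and 10.54 on the control arrays. All miR-342-3p values were below all control values, with replicate 2 far below the other arrays. The log2 fold change was -0.56 (standard error 0.17, FDR = 0.090), which is 67.7% of the control level.
Nop56, the partner of Nop58 in the same particle, had values of 11.78, 11.87 and 11.75 on the miR-342-3p arrays and 11.78, 11.64 and 11.74 on the control arrays. These overlapped, with a log2 fold change of 0.081 (95% confidence interval -0.096 to 0.26, FDR = 0.503).
Fbl had values of 10.87, 11.08 and 10.82 on the miR-342-3p arrays, against 10.75, 10.78 and 10.77 on the control arrays. The groups did not overlap, but the difference did not pass the test (0.16, standard error 0.088, FDR = 0.281). The direction for Fbl is uncertain, since a second probe set that lists the same transcript gave -0.20 (FDR = 0.333) and the mean of both probe sets -0.022.
Snu13, with 12.65, 12.64 and 12.60 on the miR-342-3p arrays and 12.66, 12.60 and 12.56 on the control arrays, was the flattest of the box C/D core (0.022, 95% confidence interval -0.14 to 0.19, FDR = 0.847). Its 4 probe sets gave -0.017 to 0.022, so the sign changed with the probe set, and it was negative when arrays were centred on their medians (-0.0066).

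The box H/ACA core consists of dyskerin (Dkc1), the pseudouridine synthase, which is also part of telomerase, and its partners Nhp2, Nop10 and Gar1. Dkc1 (chromosome X, 75095854 to 75109776) showed the largest fall of all members. It measured 10.15, 9.91 and 10.30 on the miR-342-3p arrays, against 10.81, 10.83 and 10.72 on the control arrays. The arrays separated fully, and the gap between the groups exceeded the spread within either of them. The log2 fold change was -0.66 (standard error 0.10, FDR = 0.017), or 63.1% of the control level, and it stayed between -0.75 and -0.56 when any 1 array was left out.
Gar1 measured 10.13, 9.61 and 10.15 on the miR-342-3p arrays, against 10.30, 10.48 and 10.13 on the control arrays. Its lower mean came mostly from replicate 2, the groups overlapped, and the difference did not pass the test (-0.34, standard error 0.15, FDR = 0.201). Without replicate 2 it was -0.17.
Nop10, a very small protein that contacts the catalytic domain of dyskerin, measured 11.19, 11.54 and 11.34 on the miR-342-3p arrays and 11.45, 11.46 and 11.38 on the control arrays (-0.075, 95% confidence interval -0.30 to 0.15, FDR = 0.617). Nhp2 measured 10.90, 11.13 and 10.93 on the miR-342-3p arrays and 11.01, 10.94 and 11.08 on the control arrays (-0.020, 95% confidence interval -0.22 to 0.18, FDR = 0.891). For both genes the groups overlapped, replicate 2 was above the control mean, and the sign changed when miR-342-3p replicate 1 was left out (0.0076 for Nop10 and 0.025 for Nhp2). The sign of Nhp2 also changed without miR-342-3p replicate 3 or control replicate 3.
Naf1, which holds the place of Gar1 while the particle is assembled, measured 8.89, 9.01 and 9.19 on the miR-342-3p arrays, against 9.17, 9.15 and 9.21 on the control arrays. Its difference did not pass the test (-0.15, standard error 0.091, FDR = 0.312).
Each snoRNP class thus had 1 called gene beside 3 that were not. The median log2 fold change was 0.052 over the 4 box C/D genes and -0.21 over the 4 box H/ACA genes. It was -0.048 over all 8 core genes and -0.13 over the 35 other members. The sign of the box C/D median depends on the probe set chosen for Fbl, since its second probe set gave -0.20. Of the core genes 2 of 8 were called lower, against 5 of the 35 others, and the difference between these sets was not tested. The background was 7.42% of all genes and 13.6% of genes at or above the median level. Without miR-342-3p replicate 1 (FDR = 0.158) or with repeated quantile normalization (FDR = 0.143), Nop58 was no longer called, nor without control replicate 1, 2 or 3 (FDR = 0.253, 0.215 and 0.256, with log2 fold changes of -0.56, -0.60 and -0.53). Without replicate 2 its log2 fold change was -0.35.

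**Figure D2:**
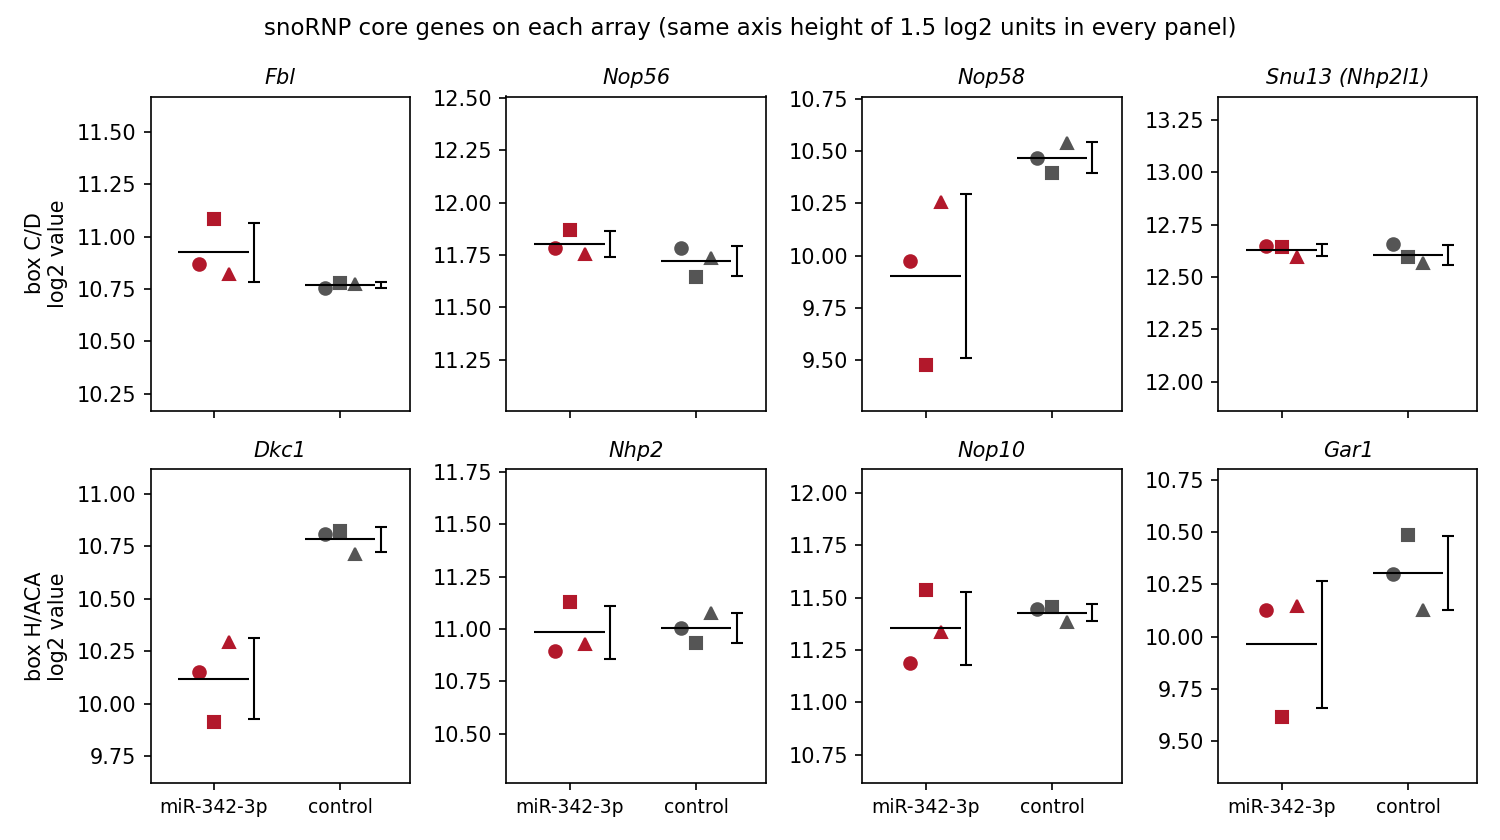
Log2 values of the 8 snoRNP core genes, with miR-342-3p arrays in red at the left and control arrays in grey at the right of each panel; circles, squares and triangles are replicates 1, 2 and 3, the horizontal line is the mean and the bar 1 SD (n = 3 arrays each). Dkc1 and Nop58 are lower on all 3 miR-342-3p arrays, whereas Snu13, Nop56, Nhp2 and Nop10 overlap with the controls.

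The small subunit processome supplied 4 of the 7 calls, with 4 of its 12 measured genes lower and none higher, and its median log2 fold change was -0.22. Lower calls made up 7.42% of all genes and 13.6% of genes at or above the median level. In 9 of the 12 genes all miR-342-3p arrays lay below all control arrays, beside 15.5% of all genes and 28.2% of genes at or above the median level. Nop14 (chromosome 5, 34638536 to 34660148) measured 8.45, 8.28 and 8.58 on the miR-342-3p arrays, against 8.95, 8.86 and 9.01 on the control arrays. It was lower on each of the 3 miR-342-3p arrays by more than the range of the controls. Its log2 fold change was -0.50 (standard error 0.095, FDR = 0.026). In yeast Nop14 binds Noc4, and the mouse counterpart Noc4l measured 9.83, 10.02 and 9.85 on the miR-342-3p arrays and 10.11, 10.07 and 9.98 on the control arrays. Those groups overlapped and the difference did not pass the test (-0.15, FDR = 0.270).
Bms1 (chromosome 6, 118383381 to 118419802), a GTPase of the processome, measured 9.19, 8.85 and 9.36 on the miR-342-3p arrays, against 9.57, 9.56 and 9.60 on the control arrays. It was lowest in replicate 2, as Nop58 and Dkc1 were, and its log2 fold change was -0.44 (standard error 0.12, FDR = 0.072).
Utp6 (chromosome 11, 79933956 to 79962387) measured 8.81, 9.02 and 9.14 on the miR-342-3p arrays, against 9.41, 9.35 and 9.38 on the control arrays (-0.39, standard error 0.095, FDR = 0.053). Utp20 (chromosome 10, 88746607 to 88826814), which encodes a very large scaffold protein, measured 8.64, 8.81 and 8.92 on the miR-342-3p arrays, against 9.13, 9.18 and 9.12 on the control arrays (-0.35, standard error 0.088, FDR = 0.057). Both genes were lowest in replicate 1, and in both replicate 3 was nearest to the controls.
Without any 1 control array these 4 genes missed the threshold, with FDRs of 0.107 to 0.134 for Nop14, 0.216 to 0.229 for Bms1, 0.182 to 0.209 for Utp6 and 0.194 to 0.221 for Utp20. Their log2 fold changes then stayed at -0.54 to -0.47 for Nop14, -0.45 to -0.43 for Bms1, -0.40 to -0.37 for Utp6 and -0.36 to -0.33 for Utp20. Bms1 also missed it without miR-342-3p replicate 1 (FDR = 0.126) and with repeated quantile normalization (FDR = 0.129).
Utp18 had a mean difference larger than those of Utp6 and Utp20, and it did not pass the test. It measured 8.14, 8.90 and 8.72 on the miR-342-3p arrays, against 9.02, 8.92 and 9.01 on the control arrays. The groups did not overlap, but replicate 2 was just below the lowest control, and the log2 fold change was -0.40 (standard error 0.17, FDR = 0.192). Without replicate 2 it was -0.55 (FDR = 0.087), and without replicate 1 it was -0.17.
The proteins encoded by Heatr1, Wdr43, Wdr75 and Utp15 belong to the early complex that links the processome to transcription of the rRNA genes. Their log2 fold changes were -0.19, -0.11, -0.091 and -0.26, none passed the test, and in each gene all miR-342-3p values were below all control values. Utp15 was called without miR-342-3p replicate 2 (FDR = 0.089). Utp3 (-0.030) and Rrp9 (0.079), a protein of the U3 snoRNP, overlapped between the groups. The sign of Rrp9 came from replicate 2 (a change of 0.34), and without it the value was -0.052. The sign of Utp3 changed without miR-342-3p replicate 1 (0.023) or control replicate 2 (0.024).

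The nucleolar phosphoproteins and factors of rRNA transcription had no called gene among 5. Nucleolin (Ncl), which binds pre-rRNA and chromatin, measured 11.30, 10.71 and 11.56 on the miR-342-3p arrays, against 11.55, 11.61 and 11.63 on the control arrays. Replicate 3 lay within the controls and replicate 2 far below, and the log2 fold change of -0.41 (standard error 0.18) did not pass the test (FDR = 0.203). It was -0.59 without replicate 3 (FDR = 0.052), and -0.17 without replicate 2.
Nucleophosmin (Npm1), a nucleolar chaperone, measured 11.15, 11.09 and 11.53 on the miR-342-3p arrays, against 11.58, 11.61 and 11.63 on the control arrays. The groups did not overlap, and the log2 fold change was -0.35 (standard error 0.12, FDR = 0.116). Without replicate 3 it was -0.49 (FDR = 0.0096).
Nolc1 (-0.062), which binds snoRNPs, Mybbp1a (-0.017) and Tcof1 (-0.014), the gene of the treacle protein, overlapped between the groups. The signs of Mybbp1a and Tcof1 flipped with repeated quantile normalization (0.036 for Mybbp1a and 0.054 for Tcof1).

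In late maturation of the small subunit, none of 4 genes was called. Ltv1 was at -0.23 (FDR = 0.143), with all miR-342-3p arrays below the controls. Rrp12 (-0.12) and Tsr1 (-0.10) overlapped, and Nob1, the endonuclease that makes the final cut of the small subunit rRNA, was at 0.12 (FDR = 0.353). Ltv1 passed the threshold without miR-342-3p replicate 3 (-0.31, FDR = 0.041).
Pes1, Bop1 and Wdr12 form the PeBoW complex, which is needed to process the precursor of the large subunit. Their log2 fold changes were -0.10, 0.020 and -0.40, and none was called. Wdr12 measured 8.73, 9.31 and 9.11 on the miR-342-3p arrays, against 9.48, 9.40 and 9.48 on the control arrays. All miR-342-3p values were below the controls, with replicate 2 close to them (standard error 0.14, FDR = 0.116). A second probe set of Wdr12 gave -0.26. Wdr12 was called without replicate 2 (-0.53, FDR = 0.052), with the level filter (FDR = 0.082) and with repeated quantile normalization (FDR = 0.094). The sign of Bop1 changed when arrays were centred (-0.0087) and without replicate 2 (-0.070).
Of 10 other genes of large subunit maturation, only Rrp1b was called, and it was lower. Rrp1b (chromosome 17, 32036162 to 32062865) measured 9.19, 9.53 and 9.43 on the miR-342-3p arrays, against 9.84, 9.71 and 9.74 on the control arrays. The groups did not overlap, and the log2 fold change was -0.38 (standard error 0.10, FDR = 0.065). Rrp1b missed the threshold without control replicate 1, 2 or 3 (FDR = 0.250, 0.191 and 0.206), with log2 fold changes of -0.34, -0.41 and -0.39.
Nip7 had the lowest log2 fold change of the members that were not called. It measured 8.41, 9.01 and 8.54 on the miR-342-3p arrays, against 9.25, 8.96 and 9.004 on the control arrays. Replicate 2 was at the level of the controls while the other arrays were below it (-0.42, standard error 0.15, FDR = 0.139). Without replicate 2 the log2 fold change was -0.59 (FDR = 0.043).
Rrs1 (-0.35) and Mrto4 (-0.25) showed the same order of arrays, with replicate 1 lowest and replicate 2 nearest to the controls. They passed the threshold without replicate 2 (FDR = 0.056 and 0.050). A second probe set of Mrto4 gave -0.19. Nop16 (-0.13), Rrp15 (-0.13), Noc3l (-0.13) and the nucleostemin gene Gnl3 (-0.12) were slightly lower in the mean, whereas the rRNA methyltransferase genes Nop2 (-0.0085) and Rrp8 (0.052) were flat. The sign of Nop2 changed with repeated quantile normalization (0.047) and that of Rrp8 without miR-342-3p replicate 2 (-0.014).

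The miR-342-3p arrays differed in which members were low. Replicate 1 was the lowest miR-342-3p array in 20 members, replicate 2 in 14 and replicate 3 in 9. Among the 9969 genes at or above the median level these numbers were 5004, 2098 and 2864. The medians of the members' changes from the control mean were -0.20, -0.074 and -0.10 in replicates 1, 2 and 3. In these arrays 37, 28 and 36 of the 43 members were below the control mean. Genes at or above the median level had medians of -0.095, 0.036 and -0.020. Of these 9969 genes, 6137, 4429 and 5447 were below the control mean. In replicate 2 the members' changes ran both ways. Nop58 (-0.99), Ncl (-0.89) and Dkc1 (-0.87) were at the bottom and Rrp9 (0.34), Fbl (0.31) and Nob1 (0.21) at the top.
Utp18 (-0.85), Wdr12 (-0.72), Rrs1 (-0.70) and Nip7 (-0.66) had their lowest values in replicate 1, where their changes in replicate 2 were -0.078, -0.14, -0.031 and -0.065. Dkc1, Nop14 and Npm1 were low in both arrays. Replicate numbers have no order, and what set these arrays apart was not tested.

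**Figure D3:**
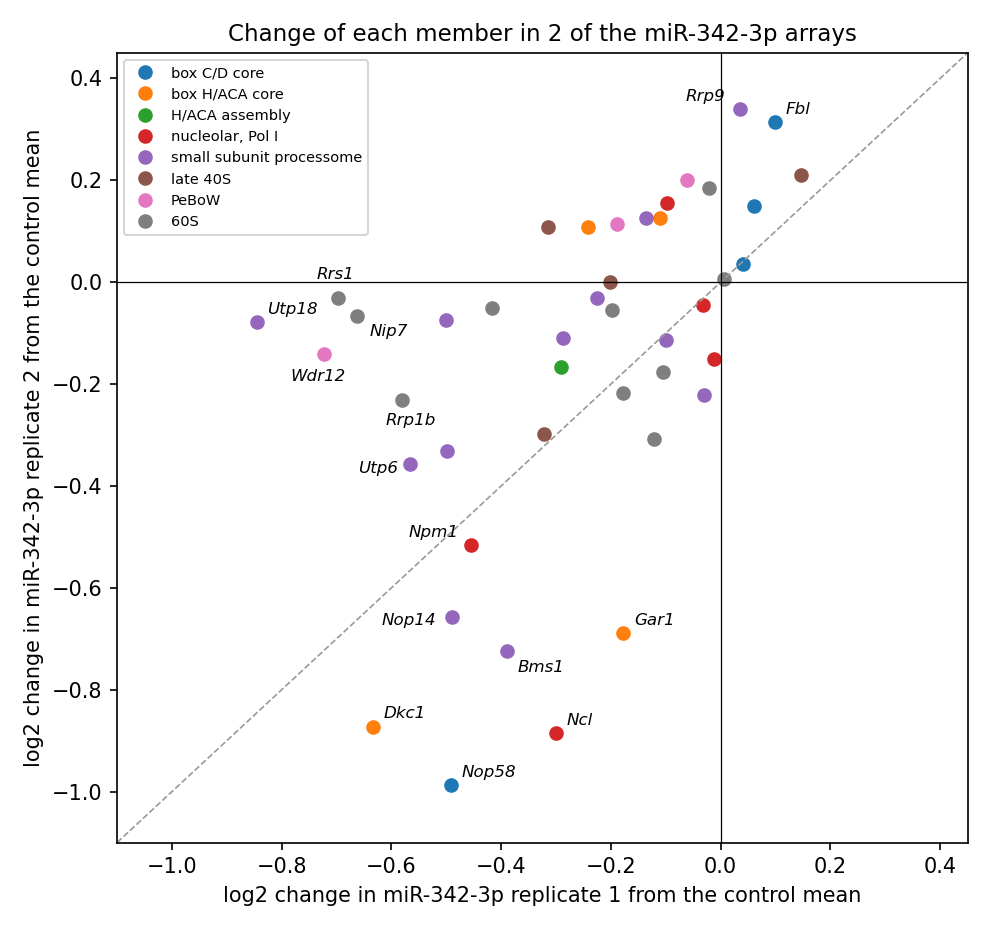
Log2 change of each of the 43 members from the control mean in miR-342-3p replicate 1 (x axis) and replicate 2 (y axis), coloured by role; both axes share the same control mean, and the dashed line marks equal change. Dkc1, Nop58, Bms1, Ncl and Gar1 lie below the line, and Utp18, Wdr12, Rrs1 and Nip7 lie far left with changes near 0 in replicate 2.

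Further genes of the pathway were taken from lists written from general knowledge of ribosome assembly. The mimic group was lower in 24 and higher in 3 of 99 measured genes, and 72 missed the threshold. The median log2 fold change of the 99 was -0.17. The lower genes make up 24.2% of them, beside 7.42% lower and 4.14% higher among all genes, and 13.6% lower and 6.19% higher among genes at or above the median level, where all 99 lay. These shares are the background for each of the lists that follow.
Among 31 further factors of the small subunit, 5 were lower and 1 was higher. The lower genes included Nol10 (-0.63, FDR = 0.036), Utp11 (-0.51), the kinase gene Riok1 (-0.44) and Utp14a (-0.38), and Riok3 was higher (0.29, FDR = 0.055). Among 35 further factors of the large subunit, 7 were lower and 1 was higher. They included the GTPase gene Gtpbp4 (-0.52, FDR = 0.033), the AAA ATPase gene Nvl (-0.51), the methyltransferase gene Ftsj3 (-0.38) and Rsl1d1 (-0.36), whereas Nop53 was higher (0.36, FDR = 0.081). Nol8 had the lowest log2 fold change of this list and did not pass the test (-0.81, FDR = 0.153), with a change of -1.69 in miR-342-3p replicate 2 against -0.54 and -0.20 in replicates 1 and 3. It was named after its values were seen.
Of 8 genes that help to assemble snoRNPs, 3 were lower and none higher, namely Znhit3 (-0.59, FDR = 0.020), Shq1 (-0.50, FDR = 0.035), a chaperone of dyskerin, and Ruvbl1 (-0.47, FDR = 0.016), an ATPase of the R2TP pathway. The exosome, which trims the ends of rRNA precursors, had the lowest median (-0.42) of these lists, with 6 of 11 genes lower and none higher (54.5% lower, beside 13.6% at or above the median level). Examples were Exosc8 (-0.67, FDR = 0.019), the helicase gene Mtrex (-0.61), Exosc9 (-0.59) and the nuclease gene Dis3 (-0.56). Of 14 genes of RNA polymerase I and its factors, Taf1d (-0.59), Taf1b (-0.54) and Cd3eap (-0.31) were lower. Taf1c was higher (0.29, FDR = 0.076). Taf1d was not called with the probe set of the highest mean or with the mean of all probe sets. With either choice 2 genes of this list were lower, and with the mean of all probe sets 5 exosome genes were.
Without control replicate 1, 2 or 3, only 2, 0 and 1 of these 99 genes were called lower and none higher. Without miR-342-3p replicate 1, 2 or 3, 19, 40 and 34 were lower, beside 4.95%, 9.18% and 12.1% of all genes. In those fits 3, 3 and 6 of the 99 were higher. With arrays centred on their medians 25 were lower and none was higher, so the rises of Riok3, Nop53 and Taf1c were not called under that scaling.

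**Figure D4:**
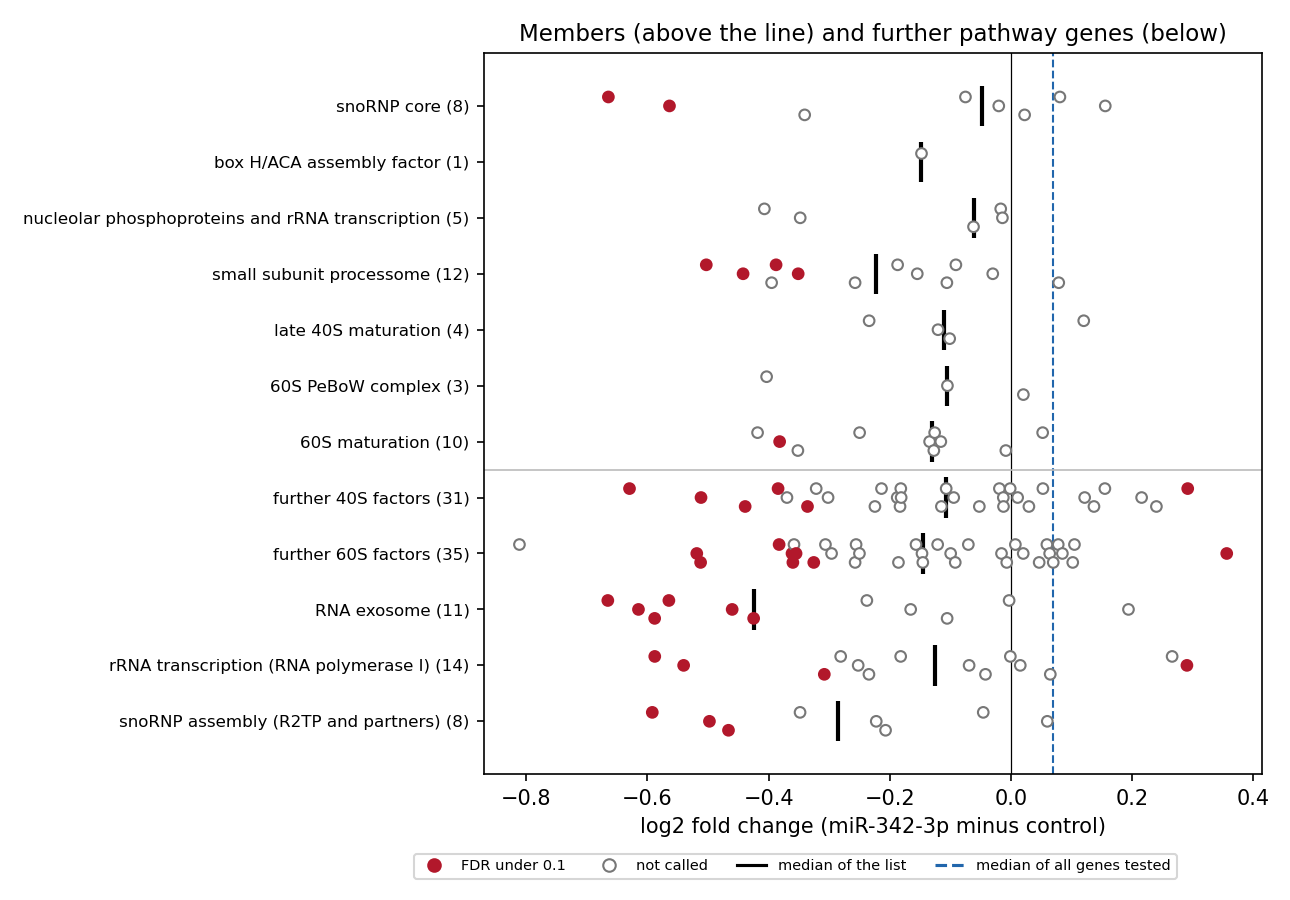
Log2 fold changes (miR-342-3p minus control) of the members by role (above the grey line) and of the further pathway genes (below), with the number of genes in parentheses, filled symbols for an FDR under 0.1, a black bar at the median of each list and a dashed line at the median of all genes tested (0.069). All list medians lie below 0, from -0.42 for the exosome to -0.048 for the snoRNP core.

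Members were also compared by features of their genes that had no part in their choice. By the RefSeq coordinates (GRCm38.p6), 7 of the 43 members contain annotated small nucleolar RNAs within their bounds (strand was not considered), namely Nop58, Ncl, Nop56, Tsr1, Gnl3, Wdr43 and Dkc1, with 19 such RNAs in all. Their log2 fold changes ranged from -0.66 for Dkc1 to 0.081 for Nop56. Of the 7, 2 were called lower, beside 7.42% of all genes and 13.6% of genes at or above the median level. A link between hosting and the change was not tested. The genes of both called snoRNP proteins are thus hosts, and so is that of Nop56, which was flat.
The E-box CACGTG, a palindrome that reads the same on both strands, is bound by MYC and related factors, which are known to drive ribosome biogenesis genes. It was searched in RefSeq promoter windows of 300 bases (250 before and 50 after the start of the gene), 1 window per gene. Of 35 members with a window, 8 held it (22.9%), beside 7.24% of all 27025 windows. In 2 of them it lay before the start and in 6 after it. The members with an E-box had a median log2 fold change of -0.11, with 1 of 8 called lower (Utp20), and the 27 without it of -0.13, with 5 called lower. Lower calls made up 7.42% of all genes and 13.6% of genes at or above the median level. A match is only a description of the sequence.
Both windows with the E-box before the start are shown as 30 bases from RefSeq (GRCm38.p6, capitals mark the E-box). Neither gene passed the test, and their changes were not compared. The Utp18 sequence is at chr11:93885769-93885798 (minus strand), and the gene was at -0.40 (-0.17 without miR-342-3p replicate 1). The Nop2 sequence is at chr6:125131811-125131840 (plus strand), and the gene was at -0.0085.
Utp18: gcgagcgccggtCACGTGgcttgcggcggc
Nop2: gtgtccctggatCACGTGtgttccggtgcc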

How the data were processed

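The deposited values are RMA log2 intensities: the authors corrected the background of each scan, normalized the arrays to common quantiles and summarized each probe set. The medians of the deposited arrays still differed, from 6.80 in miR-342-3p replicate 2 to 6.95 in miR-342-3p replicate 1. For the packages behind them, versions are not given in the sources used here. There are 35556 probe sets, of which 21789 list 1 gene, 1621 several and 12146 none in the platform annotation. In the platform annotation 21698 Entrez ID entries were found in RefSeq, which served to match listed names through synonyms and to give gene coordinates. Groups and replicate numbers came from the sample titles, and the 3 samples of each group are described by the study as independent experiments.
Linear models of the 19938 genes were fitted in R version 4.3.3 with limma version 3.58.1 (lmFit, eBayes), with 4.79 prior and 4 residual degrees of freedom, with Benjamini-Hochberg adjustment over all of them and calls at an FDR under 0.1, as in the methods of the study. No filter on level was applied in that fit. At an FDR under 0.1 the study reported more genes lower and more genes higher than this fit called. The reason was not tested. The fit was tested on simulated data. Figures were drawn with matplotlib version 3.10.9.
The members, their roles and the lists were chosen with earlier results of these data known, so no test was run over a list. Named in full are all snoRNP proteins, every called member and the 4 largest changes among the others, and up to 4 lower and 2 higher genes of each further list. Alternatives were the replicate block, each array left out, other probe set choices, a level filter, other scalings, priors, array weights, Student's t-test and an FDR under 0.05. The number of arrays limits the precision.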

Additional observations from a re-analysis of the deposited data

How the results depend on the processing

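Across 16 alternatives no member was called higher. The 7 lower members stayed the same with the probe set of the highest mean, the mean of all probe sets and centred arrays. Genes called lower then made up 7.16%, 7.22% and 6.92% of all genes. Lower members numbered 10 with the level filter (23.3% of members, against 19.6% of the 9969 genes kept). With the trend and robust prior there were 9, beside 8.84% of all genes, and with array weights 9, beside 6.72%. Repeated quantile normalization gave 6 (5 of the 7, and Wdr12), beside 7.08%. At an FDR under 0.05, 2 members were lower (1 snoRNP core gene, Dkc1, and 1 other, Nop14), and 661 genes were lower and 312 higher. Student's t-test, which the study does not name for its arrays, called none of the members, core genes or other members, and 22 genes lower and 26 higher. With the level filter 8 members outside the core were lower. Repeated quantile normalization left 1 core gene, and its 1412 lower and 1426 higher genes (49.8% lower) compare with 1479 and 825 (64.2%) as deposited and with 1379 and 408 (77.2%) for centred arrays.
When 1 array was left out, lower members numbered 1 to 13, lower core genes 1 to 2, other members 0 to 11, lower genes 102 to 2422 and higher genes 88 to 2104. The members' median ranged from -0.17 to -0.11, against -0.13 with all arrays, and was -0.065 with repeated quantile normalization, where 32 of 43 members were below 0.
Values with a changed sign were all small. With repeated quantile normalization they were 0.0398 for Nhp2, 0.0537 for Tcof1, 0.0365 for Mybbp1a and 0.0466 for Nop2. With centred arrays Snu13 was at -0.0066 and Bop1 at -0.00866, with array weights Tcof1 was at 0.0096 and Bop1 at -0.01999, and with the mean of probe sets Fbl was at -0.0223. With 1 array left out, Nhp2 ranged from -0.0930 to 0.025, Nop10 from -0.167 to 0.00763, Mybbp1a from -0.103 to 0.0291, Utp3 from -0.109 to 0.0236, Tcof1 from -0.0384 to 0.00979, Nop2 from -0.0268 to 0.0159, Rrp9 from -0.0517 to 0.188, Bop1 from -0.0697 to 0.0693 and Rrp8 from -0.014 to 0.0885. The cause of these changes was not tested.
Whether arrays with the same replicate number came from the same experiment is not stated in the sources used here. Deviations of same-numbered arrays from their group means correlated at -0.31, -0.16 and -0.11 over all genes. These values show no positive correlation, but with so few arrays they cannot tell whether the arrays were paired. The replicate block called 8 members lower, the 7 and Wdr12, with 1445 lower and 550 higher genes. Compared with the main fit, its FDRs were lower for Nop58 (0.020), Dkc1 (0.0071), Bms1 (0.043) and Nop14 (0.015). They were higher for Utp6 (0.060), Utp20 (0.079) and Rrp1b (0.077).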
